A study of Homo sapiens with 4 samples.

Results

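Fatty acid synthesis and desaturation is described here through 10 genes of 24462 measured in HepG2, an established human liver cancer cell line. The study lists HepG2 among its hepatocellular carcinoma lines. The genes were SREBF1, ACLY, ACSS2, ACACA, FASN, ELOVL6, ELOVL5, SCD, FADS1 and FADS2, and they were taken by their symbols as genes of the pathway, with earlier results of these data known. Each was listed once in every count table, all 10 passed the filter on low counts in every comparison, and a single gene in a single library had between 153 and 14138 reads. Gene expression was measured by QuantSeq, which sequences the 3′ end of polyadenylated transcripts, in 4 libraries with 1 library per condition. The PD0332991 library came from cells given PD0332991 (palbociclib, a small-molecule inhibitor of the kinases CDK4 and CDK6) and its control from cells given the vehicle DMSO. The CDK4/6 KD library came from cells transfected with siRNAs against CDK4 and CDK6, and its control from cells given a scrambled siRNA. All cells were grown in RPMI medium with serum, and the dose and the time of the treatments are not given in the sources used here. The comparisons address what loss of CDK4/6 activity, by a drug or by knockdown, does to gene expression in these cells.

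Fatty acid synthesis begins in the cytosol with acetyl-CoA, which ACLY makes from citrate and ACSS2 makes from acetate. ACACA carboxylates acetyl-CoA to malonyl-CoA, and FASN joins these units into palmitate, which ELOVL6 lengthens to stearate and SCD desaturates to monounsaturated fatty acids. FADS2 and FADS1 desaturate dietary polyunsaturated fatty acids, with elongation by ELOVL5 between them. SREBF1 encodes the transcription factor SREBP-1, which is made as a membrane-bound precursor and, once cut, turns on the genes of this pathway in liver.

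The pathway's genes do not lie together on the genome, except for FADS1 and FADS2, which are neighbours on chromosome 11 on opposite strands. In the GENCODE annotation of GRCh38, FADS1 spans chr11:61799625-61829318 on the minus strand and FADS2 spans chr11:61792980-61867354 on the plus strand, so that the annotated spans overlap. The RefSeq start of FADS1 (61817003) lies 800 and 599 bases from the 2 RefSeq starts of FADS2, and no exon of another gene lies in the last 500 bases of either gene's transcripts. SREBF1 (chr17:17810399-17837002), ACLY (chr17:41866908-41930542), ACACA (chr17:37084988-37406818) and FASN (chr17:82078333-82098332) are all on the minus strand of chromosome 17. SCD lies at chr10:100347124-100364834 on the plus strand, ELOVL6 at chr4:110045846-110199199 and ELOVL5 at chr6:53267398-53349179 on the minus strand, and ACSS2 at chr20:34872146-34927962 on the plus strand. These are all protein-coding genes, and their coordinates describe the annotation and not the count tables, which hold symbols with no positions and were made on hg19.

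The start regions are printed for 4 genes on which the results turn. FADS1 and FADS2 shared the strongest decrease with PD0332991, and ELOVL6 was lower in both treated libraries. SCD went the other way from FADS1 and FADS2 in each treated library against its own control, but the same way against the other control. Each runs 5′ to 3′ on the strand of its gene from 250 bases before to 50 bases after a RefSeq start site (GRCh38.p14). Capitals mark CCAAT, the core of the NF-Y box, and GGGCGG, the GC box bound by Sp1, on either strand. The windows are chr11:61816954-61817253 on the minus strand for FADS1, chr11:61816154-61816453 on the plus strand for FADS2, chr10:100346983-100347282 on the plus strand for SCD and chr4:110198566-110198865 on the minus strand for ELOVL6. The window of the other FADS2 start (chr11:61815953-61816252) is not printed and holds neither CCAAT nor GGGCGG.
FADS1: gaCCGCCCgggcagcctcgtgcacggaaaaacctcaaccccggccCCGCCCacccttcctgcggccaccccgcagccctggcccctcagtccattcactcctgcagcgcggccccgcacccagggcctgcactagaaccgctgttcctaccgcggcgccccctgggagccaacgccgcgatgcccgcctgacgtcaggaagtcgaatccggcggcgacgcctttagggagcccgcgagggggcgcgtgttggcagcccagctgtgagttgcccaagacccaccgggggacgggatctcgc
FADS2: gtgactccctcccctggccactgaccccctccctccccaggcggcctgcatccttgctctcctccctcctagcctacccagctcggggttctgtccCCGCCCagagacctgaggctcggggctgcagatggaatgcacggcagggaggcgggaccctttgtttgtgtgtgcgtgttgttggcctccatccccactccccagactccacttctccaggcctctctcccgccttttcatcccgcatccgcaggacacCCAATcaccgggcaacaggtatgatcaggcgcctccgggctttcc
SCD: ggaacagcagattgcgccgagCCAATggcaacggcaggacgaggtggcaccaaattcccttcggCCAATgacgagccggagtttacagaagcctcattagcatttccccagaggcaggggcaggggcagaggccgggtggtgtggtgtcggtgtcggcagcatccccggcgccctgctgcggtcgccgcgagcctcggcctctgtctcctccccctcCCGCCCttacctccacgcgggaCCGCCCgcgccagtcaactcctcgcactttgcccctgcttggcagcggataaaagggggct
ELOVL6: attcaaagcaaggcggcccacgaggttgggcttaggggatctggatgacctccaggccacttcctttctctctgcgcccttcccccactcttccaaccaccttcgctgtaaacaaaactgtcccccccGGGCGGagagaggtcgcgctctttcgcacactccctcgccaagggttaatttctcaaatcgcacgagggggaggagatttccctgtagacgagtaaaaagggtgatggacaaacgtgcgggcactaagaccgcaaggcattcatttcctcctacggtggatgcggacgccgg
RefSeq gave 14 such windows for the members, and FASN had no entry. Some genes had more than 1 window. Those of ACLY (chr17:41918973-41919272 and chr17:41918902-41919201) overlap, so that the same ACLY boxes are counted in both, and those of FADS2 overlap as well. The windows are therefore not independent, and their counts cannot show an excess over the share of all windows. CCAAT was found in 8 of the 14 windows, against 34.6% of 35116 human windows of the same length, and GGGCGG was found in 11 of 14, against 45.0%. The E-box CACGTG was found in 1 window, that of ELOVL5, against 7.26% of all windows, and the E2F-like motif TTTNNCGC was found in 1 ACACA window, against 6.89%. The classical sterol regulatory element TCACNCCAC was in 0 of the 14 windows and in 1.13% of all windows. With so low a share, 0 of 14 does not show that these genes lack such elements. Other spellings and bases outside the windows were not searched. Both strands were searched, no motif holds the letters of another, and a match is a stretch of letters and not a measured binding site.

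Levels are given as TMM-normalized CPM, read counts scaled to a common library size, where TMM is a scaling that sets the bulk of genes equal between libraries. Fold changes are ratios of these levels with a pseudocount of 0.5 reads, and each is followed by its 95% interval (Clopper-Pearson, from how the gene's reads divided between the libraries). These intervals cover counting error only and compare libraries, not conditions, since no condition was replicated, so no p-value was computed. A gene is called higher or lower where its interval lies wholly above or below 1. A larger change is called where the fold is at least 2 in either direction, among genes that reached 10 reads in one of the libraries compared. Calls by interval depend on the number of reads. Each member had at least 153 reads in every library, while the share over all genes includes genes that only just reached 10. Intervals of such genes are wider, so these shares are no matched background for counts by interval. Levels are compared only within a gene, since the number of 3′ reads per transcript differs between genes. The plot of levels by library shows all 10 genes in this way.

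**Figure D1:**
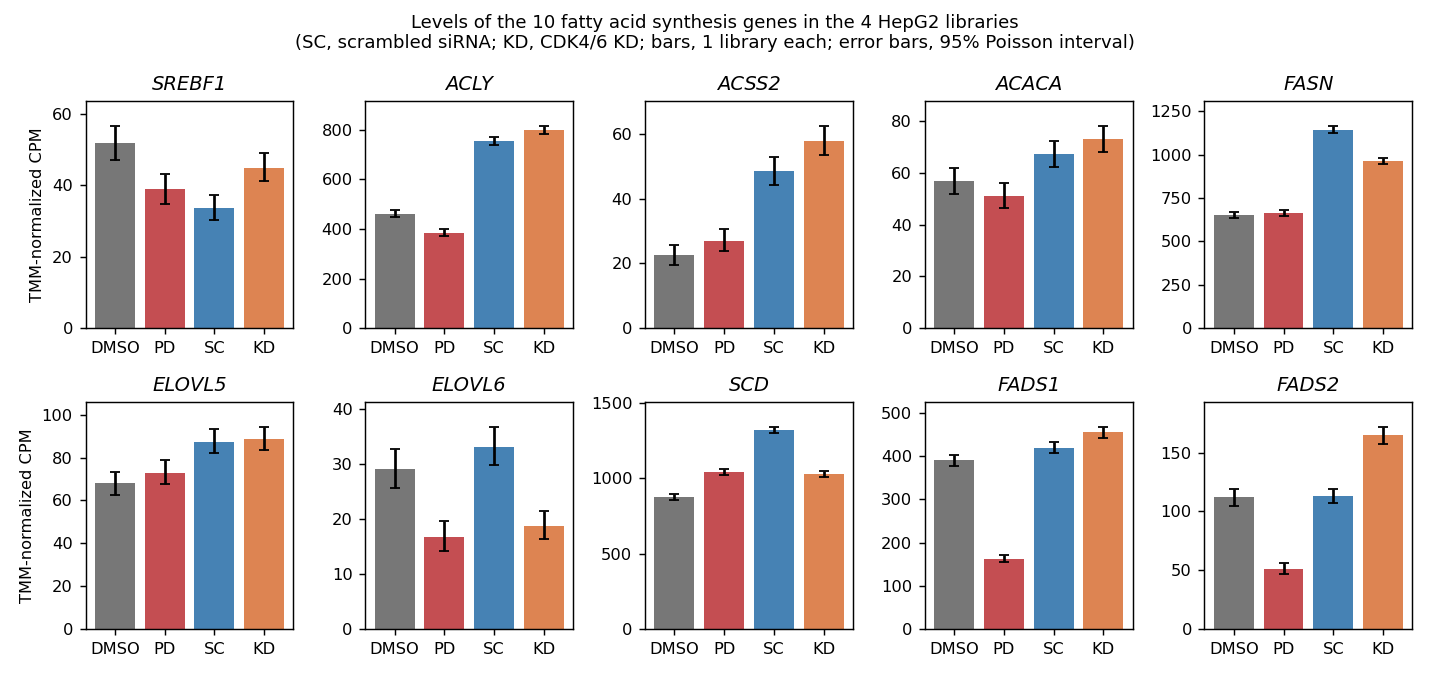
Levels of the 10 genes as TMM-normalized CPM (vertical axes, each starting at 0 and scaled to its gene) in the DMSO, PD0332991 (PD), scrambled siRNA (SC) and CDK4/6 KD (KD) libraries, with 1 library per bar and 95% Poisson intervals as error bars. FADS1 stood at 390.1, 162, 419.5 and 455 CPM and was lowest with PD0332991, whereas FASN stood at 654, 663, 1145 and 964 CPM and separated the siRNA libraries from the other pair.

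The libraries held between 8983848 and 11176880 reads, with TMM factors between 0.957 and 1.03. The targeted kinases were lower in the CDK4/6 KD library, where CDK4 had 71.9 CPM against 354 CPM with scrambled siRNA (0.203-fold, 0.188 to 0.219) and CDK6 had 129 against 536 CPM (0.241-fold, 0.228 to 0.256). The 13 hepatocyte markers summed to between 21992 and 28543 CPM and none was at 0 in any library. The 20 keratinocyte markers summed to 72.0 CPM with DMSO, 167 with PD0332991, 64.4 with scrambled siRNA and 108 with CDK4/6 KD, with 5, 1, 5 and 3 genes at 0. KRT10 made up most of each sum except that with PD0332991 (66.3, 77.0, 48.0 and 87.1 CPM) and hid the other genes. Of the 8 markers that passed the filter, 7 were at least 2-fold higher with PD0332991 than with DMSO (median 14.6-fold), beside 7.49% of all genes. FADS1 and FADS2 were lowest with PD0332991 and highest with CDK4/6 KD. KRT5, a basal keratin, had 2, 113, 13 and 43 reads in the order DMSO, PD0332991, scrambled siRNA and CDK4/6 KD, KRT14 had 9, 249, 31 and 74, and SPRR1A had 4, 114, 26 and 26. The same count, 7 of 8, was at least 2-fold higher with scrambled siRNA than with DMSO (median 3.22-fold), beside 5.30% of all genes. With CDK4/6 KD against scrambled siRNA 2 of 8 were, beside 9.19%. KRT5, KRT14, KRT6A, KRT6B, KRT16 and SPRR1A had fewer than 10 reads with DMSO. In both comparisons with DMSO they passed the filter only through the library where they were higher. Those counts and medians thus follow in part from the filter, and 13 of the 20 markers had at most 3 reads with DMSO. The basal factor TP63 had at most 1 read in a library, and LOR had none. The 10 blood and stromal markers summed to between 531 and 1043 CPM, with 1 to 4 genes at 0, and LYZ alone gave 501 to 1022 CPM of this. The collagens were lowest with scrambled siRNA, where COL1A1 had 73 reads against 332, 468 and 207 with DMSO, PD0332991 and CDK4/6 KD, COL1A2 had 17 against 66, 148 and 36, and COL3A1 had 1 against 30, 59 and 7. DCN had 18 reads with PD0332991, 2 with CDK4/6 KD and 0 in both controls. The 20 proliferation markers summed to 6544 CPM with DMSO, 975 with PD0332991, 4658 with scrambled siRNA and 2127 with CDK4/6 KD, and each of the 20 was lower in both treated libraries than in its own control. In bulk RNA a smaller share of expressing cells and less RNA per cell cannot be told apart, and whether these marker differences bear on the results below was not tested.

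Beyond the treatments, the controls themselves differed for these genes. ACSS2 was at least 2-fold higher with scrambled siRNA than with DMSO and no member was at least 2-fold lower, where 5.30% and 6.64% of 13303 genes were called. By interval, 7 of the 10 genes were higher and SREBF1 alone was lower, against 28.3% and 28.0% of all genes, and the median log2 fold change was 0.30, against 0.01 over all genes. Together the 10 genes took 0.273% of the reads with DMSO, 0.255% with PD0332991, 0.385% with scrambled siRNA and 0.380% with CDK4/6 KD. After TMM scaling, the sum of the members was 1.48-fold higher with scrambled siRNA than with DMSO (lower end of the interval 1.45). This was a larger difference than that between either treated library and its own control (0.919-fold, 0.906 to 0.931, for CDK4/6 KD and 0.923-fold, 0.906 to 0.940, for PD0332991). The shares of reads above hold no TMM factors, which were 0.957 with scrambled siRNA and 1.03 with CDK4/6 KD. The value of 0.919-fold therefore owes much to the scaling, since the shares in these libraries were 0.385% and 0.380%. The sum of the members mainly follows the genes with the most reads, since SCD, FASN and ACLY held 32.9%, 28.5% and 18.7% of it with scrambled siRNA. For single genes the folds between the controls ran from 0.652 for SREBF1 to 2.14 for ACSS2. Transfection, a difference between the DMSO and siRNA cultures, and variation between libraries cannot be told apart here. For this reason each treated library was also set against both controls.

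With CDK4/6 KD these genes differed from scrambled siRNA by less than 2-fold and in both directions. None of the 10 was at least 2-fold higher, where 9.19% of 13617 genes were called, and none was at least 2-fold lower, where 7.62% were called. By interval, SREBF1, ACLY, ACSS2, FADS1 and FADS2 were higher, against 30.0% of all genes, and FASN, ELOVL6 and SCD were lower, against 31.9%. The median log2 fold change of the members was 0.10, beside 0.00 over all genes. Folds ran from 0.568 for ELOVL6 to 1.46 for FADS2.

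With PD0332991 the largest decreases of the pathway were in the polyunsaturated desaturases. FADS1 and FADS2 were at least 2-fold lower than with DMSO, where 7.06% of 13443 genes were called, and no member was at least 2-fold higher, against 7.49%. By interval, SREBF1, ACLY, ELOVL6, FADS1 and FADS2 were lower, against 28.6% of all genes, and SCD alone was higher, against 28.1%. The median log2 fold change was -0.21, beside 0.02 over all genes.

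**Figure D2:**
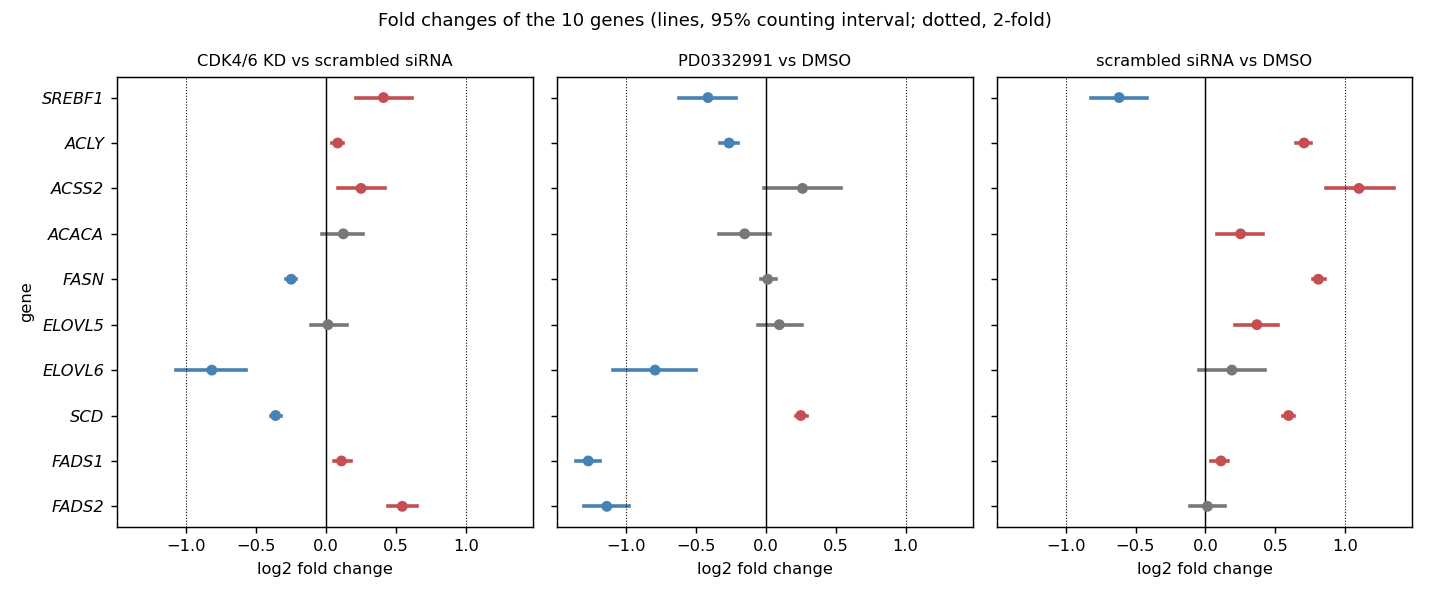
Log2 fold changes of the 10 genes (horizontal axes, points) in CDK4/6 KD against scrambled siRNA, PD0332991 against DMSO, and scrambled siRNA against DMSO, with 95% counting intervals as lines, red and blue where the interval lies above and below 0, and dotted lines at 2-fold. FADS1 (-1.27) and FADS2 (-1.13) lay past the 2-fold line with PD0332991, ACSS2 (1.10) lay past it between the controls, and no gene did so with CDK4/6 KD.

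SREBF1, the transcription factor of the pathway, was the only member that was lower with scrambled siRNA than with DMSO. It had 51.7 CPM with DMSO, 38.8 with PD0332991, 33.6 with scrambled siRNA and 44.9 with CDK4/6 KD. Its levels with PD0332991 and scrambled siRNA differed by less than counting error (1.15-fold, 0.992 to 1.34). Against its own control, SREBF1 was 1.33-fold (1.16 to 1.53) higher with CDK4/6 KD and 0.751-fold (0.652 to 0.863) with PD0332991. Neither call held with the other control, since CDK4/6 KD turned to 0.869-fold (0.765 to 0.987) against DMSO and PD0332991 was within counting error of scrambled siRNA. The SREBP-1 isoforms differ in their first exon and share the 3′ end of the transcript, so that the counts do not separate them.

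The genes whose levels over the 4 libraries lay nearest to those of SREBF1 were MRPL33, PIP4K2B, PBX2, CNP and SLC25A5, among 4119 genes outside the member list whose mean over the libraries reached 500 reads. Likeness was measured as the Euclidean distance between log2 CPM values centred over the 4 libraries, and it was 0.07, 0.07, 0.10, 0.11 and 0.12 for these genes in turn. MRPL33, for example, had 163, 115, 101 and 134 CPM in the order DMSO, PD0332991, scrambled siRNA and CDK4/6 KD. By rule, the other members were left out of the candidates. The counting error of SREBF1 itself (38.8 CPM, 34.8 to 43.0, with PD0332991) was wider than these distances, so their order carries no weight. With 4 libraries and 4119 genes, close matches can arise without shared regulation, which was not tested.

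Of the acetyl-CoA producing enzymes, ACLY, ATP citrate lyase, had 462 CPM with DMSO, 385 with PD0332991, 753 with scrambled siRNA and 798 with CDK4/6 KD. Both siRNA libraries thus stood above both other libraries, and every step between neighbours in this order exceeded counting error. ACLY was 0.834-fold (0.797 to 0.872) with PD0332991 against DMSO, and 1.06-fold (1.03 to 1.09) with CDK4/6 KD against scrambled siRNA. The step between the controls was larger, at 1.63-fold (1.57 to 1.69), so that CDK4/6 KD stood 1.73-fold (1.66 to 1.79) above DMSO. An annotated antisense gene, AC125257.2, has an exon in the last 500 bases of an ACLY transcript on the opposite strand, and whether the counting used strand is not given in the sources used here.

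ACSS2, the cytosolic acetyl-CoA synthetase, showed the same split between siRNA and other libraries. It had 22.5 CPM (206 reads) with DMSO, 27.0 (246 reads) with PD0332991, 48.4 (518 reads) with scrambled siRNA and 57.8 (654 reads) with CDK4/6 KD. The step between the controls was 2.14-fold (1.82 to 2.54), the only change of 2-fold or more among the members in that comparison, with an interval that reached below 2. CDK4/6 KD was 1.19-fold (1.06 to 1.34) above scrambled siRNA, whereas PD0332991 and DMSO differed by less than counting error (1.20-fold, 0.992 to 1.45).

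ACACA, acetyl-CoA carboxylase alpha, which makes malonyl-CoA, varied little. Its levels were 56.7 CPM with DMSO, 51.1 with PD0332991, 67.2 with scrambled siRNA and 73.0 with CDK4/6 KD. Neither treatment moved it past counting error from its own control, at 1.09-fold (0.981 to 1.20) for CDK4/6 KD and 0.901-fold (0.793 to 1.02) for PD0332991. These intervals leave room for changes of up to 1.20-fold and down to 0.793-fold in the libraries.

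FASN, fatty acid synthase, had 654 CPM with DMSO, 663 with PD0332991, 1145 with scrambled siRNA and 964 with CDK4/6 KD. The DMSO and PD0332991 libraries differed by less than counting error (1.01-fold, 0.978 to 1.05). CDK4/6 KD was 0.842-fold (0.820 to 0.864) against scrambled siRNA but 1.47-fold (1.43 to 1.52) against DMSO, so the direction depended on the control. Between the controls FASN differed by 1.75-fold (1.70 to 1.81).

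ELOVL6, which elongates palmitate, was the one member below both controls in both treated libraries. It had 29.1 CPM (266 reads) with DMSO, 16.8 (153 reads) with PD0332991, 33.2 (355 reads) with scrambled siRNA and 18.8 (213 reads) with CDK4/6 KD. The controls did not differ beyond counting error (1.14-fold, 0.969 to 1.34). ELOVL6 was 0.568-fold (0.476 to 0.674) with CDK4/6 KD and 0.578-fold (0.470 to 0.707) with PD0332991 against their own controls, and 0.647-fold (0.537 to 0.777) and 0.507-fold (0.416 to 0.614) against the other control. ELOVL6 was also the member with the fewest reads in every library except DMSO, where ACSS2 had fewer (206 reads).

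ELOVL5, which elongates polyunsaturated fatty acids, did not follow ELOVL6. It had 68.0 CPM with DMSO, 73.0 with PD0332991, 87.5 with scrambled siRNA and 88.8 with CDK4/6 KD, and neither treatment differed from its own control beyond counting error (1.07-fold, 0.962 to 1.20, for PD0332991 and 1.01-fold, 0.928 to 1.11, for CDK4/6 KD). The number of ELOVL5 reads for each ELOVL6 read was 2.33 (2.02 to 2.71) with DMSO and 2.64 (2.33 to 2.99) with scrambled siRNA. It was 4.35 (3.64 to 5.22) with PD0332991 and 4.72 (4.07 to 5.50) with CDK4/6 KD, above both controls without overlap of the intervals. A ratio between genes is read only for its change between libraries, and it does not depend on the scaling of a library.

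SCD, stearoyl-CoA desaturase, had 876 CPM with DMSO, 1045 with PD0332991, 1321 with scrambled siRNA and 1029 with CDK4/6 KD. Both treated libraries lay between the controls and differed from each other by less than counting error. SCD was therefore 1.19-fold (1.16 to 1.23) higher with PD0332991 and 0.779-fold (0.760 to 0.799) with CDK4/6 KD against their own controls. Both directions turned against the other control, to 0.791-fold (0.770 to 0.811) for PD0332991 and 1.18-fold (1.14 to 1.21) for CDK4/6 KD.

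FADS1, the delta-5 desaturase, was lowest with PD0332991, at 162 CPM (1473 reads), against 390.1 CPM (3564 reads) with DMSO, 419.5 (4489 reads) with scrambled siRNA and 455 (5152 reads) with CDK4/6 KD. The fold with PD0332991 was 0.415 (0.390 to 0.441) against DMSO and 0.386 (0.363 to 0.409) against scrambled siRNA. With CDK4/6 KD it was 1.08 (1.04 to 1.13) against scrambled siRNA and 1.17 (1.12 to 1.22) against DMSO. The controls differed by 1.08-fold (1.03 to 1.12), so that PD0332991 stood apart from 3 libraries that lay close together.

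FADS2, the delta-6 desaturase, also had its lowest level with PD0332991. It had 112 CPM (1023 reads) with DMSO, 51.0 (464 reads) with PD0332991, 113 (1208 reads) with scrambled siRNA and 165 (1863 reads) with CDK4/6 KD. The controls differed by less than counting error (1.01-fold, 0.927 to 1.10). FADS2 was 0.455-fold (0.407 to 0.508) with PD0332991 against DMSO and 1.46-fold (1.36 to 1.57) with CDK4/6 KD against scrambled siRNA, and values against the other control were within 0.01 of these, at 0.452-fold and 1.47-fold. The range over the 4 libraries was 3.23-fold, the widest of the 10 genes, followed by 2.81-fold for FADS1 and 2.56-fold for ACSS2.

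The FADS neighbours were not locked together in every library. There were 3.48 (3.25 to 3.74) FADS1 reads for each FADS2 read with DMSO, 3.17 (2.86 to 3.53) with PD0332991 and 3.72 (3.49 to 3.96) with scrambled siRNA. With CDK4/6 KD the ratio was 2.77 (2.62 to 2.92), below both controls. The number of SCD reads for each FADS1 read was 2.25 (2.16 to 2.34) with DMSO, 6.46 (6.11 to 6.83) with PD0332991, 3.15 (3.05 to 3.26) with scrambled siRNA and 2.26 (2.19 to 2.34) with CDK4/6 KD. The balance of monounsaturated to polyunsaturated desaturase reads was thus highest with PD0332991. One named pseudogene each of SCD and FADS2 is annotated, and reads that these share with their parent genes could have been split in the counting.

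**Figure D3:**
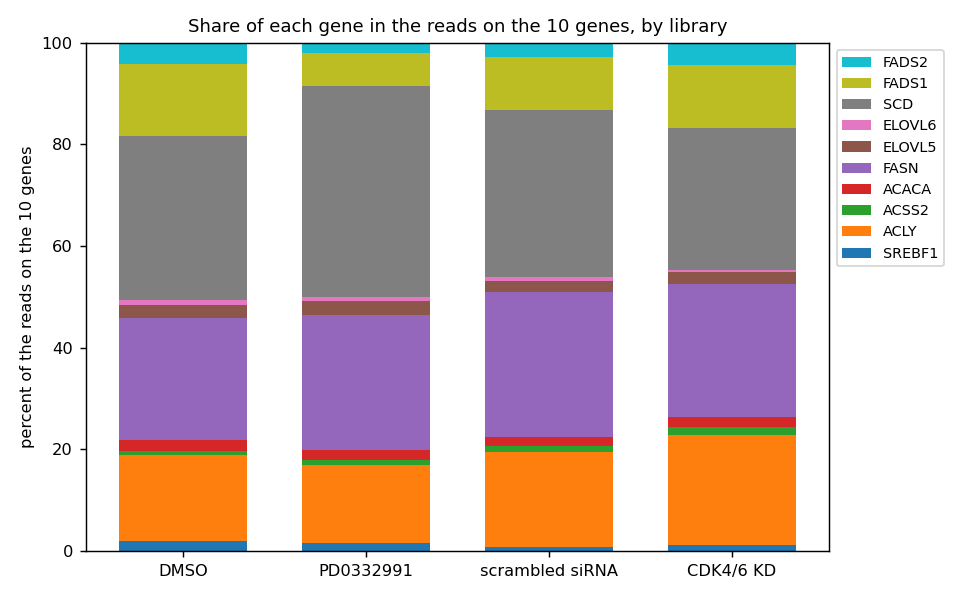
Share of each gene in the reads on the 10 genes (vertical axis, percent) in each of the 4 libraries (bars). The share of FADS1 was 14.3% with DMSO, 6.44% with PD0332991, 10.4% with scrambled siRNA and 12.3% with CDK4/6 KD, while that of SCD was 32.2%, 41.6%, 32.9% and 27.9%.

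Set against the control of the other arm, CDK4/6 KD had 1 gene (ACSS2) at least 2-fold higher and none at least 2-fold lower, against 8.04% and 8.16% of 13512 genes, with 8 genes higher and 2 lower by interval, against 28.9% and 30.5%. PD0332991 had 2 genes (FADS1 and FADS2) at least 2-fold lower and none at least 2-fold higher than scrambled siRNA, against 8.17% and 10.6% of 13552 genes, with 9 genes lower and none higher by interval, against 32.5% and 30.5%. These comparisons share their libraries with those above and are no separate evidence.

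Set against both controls at once, 4 genes (ACLY, ACSS2, FADS1 and FADS2) were higher with CDK4/6 KD by interval, against 17.2% of 13379 genes, and 1 (ELOVL6) was lower, against 19.6%. SREBF1, FASN and SCD were above one control and below the other, and ACACA and ELOVL5 were on neither side of both. With PD0332991, 4 genes (ACLY, ELOVL6, FADS1 and FADS2) were below both controls, against 19.0% of 13312 genes, and none was above both, against 17.7%. ACLY, FADS1 and FADS2 were therefore above both controls in one treated library and below both in the other. The plot of both comparisons places these genes in its upper left part.

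**Figure D4:**
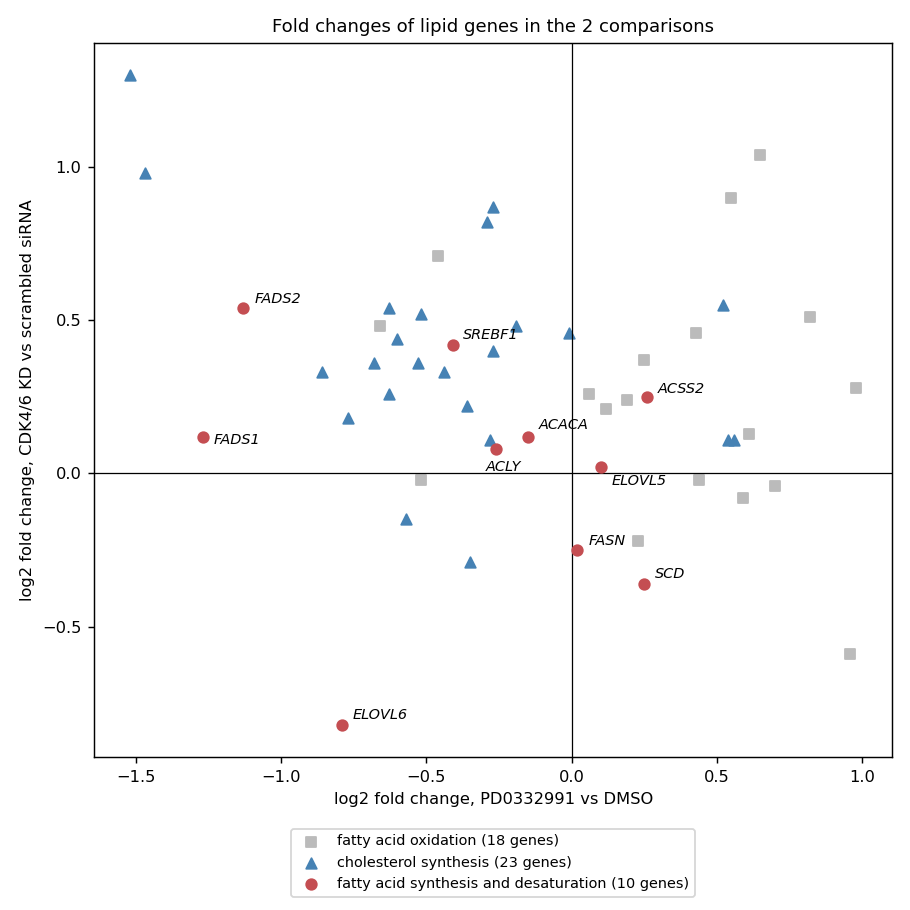
Log2 fold changes with PD0332991 against DMSO (horizontal axis) and with CDK4/6 KD against scrambled siRNA (vertical axis), 1 point per gene, for the 10 fatty acid synthesis genes (red circles), 23 cholesterol synthesis genes (blue triangles) and 18 fatty acid oxidation genes (grey squares). FADS2 (-1.13 and 0.54) and FADS1 (-1.27 and 0.12) lie on the left above the horizontal line, ELOVL6 (-0.79 and -0.82) lies low on both axes, and SCD (0.25 and -0.36) lies at the lower right.

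Among the genes that control SREBP, the largest folds with CDK4/6 KD were those of a protease and a regulator. SREBF2, which encodes the SREBP of cholesterol synthesis, had 43.2 CPM with DMSO, 57.5 with PD0332991, 65.6 with scrambled siRNA and 75.5 with CDK4/6 KD, and it was higher in both treated libraries than in their own controls (1.33-fold, 1.17 to 1.52, and 1.15-fold, 1.04 to 1.27). The PD0332991 value turned to 0.877-fold (0.782 to 0.984) against scrambled siRNA. SCAP, the escort of the SREBP precursor, followed the same order, with 102, 126, 133 and 154 CPM, and was 1.23-fold (1.13 to 1.34) with PD0332991, or 0.947-fold (0.876 to 1.02) against scrambled siRNA, and 1.16-fold (1.08 to 1.24) with CDK4/6 KD. INSIG2, which retains SCAP, had 30.0, 21.9, 33.9 and 29.2 CPM, at 0.729-fold (0.604 to 0.878) with PD0332991. INSIG1 was listed with 0 to 3 reads in these libraries and was not compared.
MBTPS1, the first protease that cuts the SREBP precursor, had 109.9 CPM with DMSO, 129 with PD0332991, 56.6 with scrambled siRNA and 152 with CDK4/6 KD, which gave 2.69-fold (2.45 to 2.96) with CDK4/6 KD and 0.516-fold (0.465 to 0.571) between the controls. Against DMSO the CDK4/6 KD value was 1.39-fold, with a lower interval end of 1.28. TRIB1, a pseudokinase linked to hepatic lipogenesis, showed the reverse, with 64.8, 72.7, 133 and 39.6 CPM and 0.299-fold (0.268 to 0.332) with CDK4/6 KD, or 0.611-fold (0.539 to 0.692) against DMSO. Of the 9 SREBP processing genes that could be compared, 4 were higher and 3 lower with CDK4/6 KD (median log2 fold change 0.20), and 6 were higher and 2 lower with PD0332991 (median 0.23). Over all genes the shares called higher and lower by interval were 30.0% and 31.9% with CDK4/6 KD and 28.1% and 28.6% with PD0332991, and the list counts here and below are to be read beside these. Against scrambled siRNA the PD0332991 result turned, with 2 genes higher and 4 lower and a median of -0.08, beside 30.5% and 32.5% of all genes.

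Among 14 other lipogenic regulators, 7 were higher and 3 lower with CDK4/6 KD, beside 30.0% and 31.9% of all genes, and 6 were higher and 5 lower with PD0332991, beside 28.1% and 28.6%, with median log2 fold changes of 0.30 and 0.28. PPARGC1B, a coactivator of SREBP, was at least 2-fold lower with CDK4/6 KD on 15 and 6 reads, with an interval that spanned 1 (0.120 to 1.03). The median of 0.30 was -0.06 when CDK4/6 KD was set against DMSO. There 4 genes were higher and 4 lower, near the shares of 28.9% and 30.5% over all genes. MLXIPL, the carbohydrate-responsive factor ChREBP, had 328 CPM with DMSO, 547 with PD0332991, 248 with scrambled siRNA and 321 with CDK4/6 KD. It was higher in both treated libraries than in their own controls (1.67-fold, 1.59 to 1.74, with PD0332991 and 1.29-fold, 1.23 to 1.36, with CDK4/6 KD), but CDK4/6 KD and DMSO differed by less than counting error (0.978-fold, 0.931 to 1.03). Its partner MLX went the other way, with 48.7, 22.6, 49.1 and 32.2 CPM, at 0.465-fold (0.392 to 0.549) with PD0332991 and 0.658-fold (0.573 to 0.753) with CDK4/6 KD. NR1H3, the oxysterol receptor LXR-alpha, had 17.2, 23.9, 16.7 and 21.6 CPM and was 1.39-fold (1.13 to 1.72) and 1.29-fold (1.06 to 1.58) in the treated libraries. Between the controls NR1H2, the related receptor LXR-beta, was 3.06-fold (2.21 to 4.37) higher and THRSP, a lipogenic protein of few reads here (19 to 65), was 0.471-fold (0.250 to 0.833).

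Of 10 genes of citrate, NADPH, acetyl-CoA and malonyl-CoA metabolism, 7 were lower and 2 higher with CDK4/6 KD (median log2 fold change -0.42), beside 31.9% and 30.0% of all genes, and 5 were lower and 3 higher with PD0332991 (median -0.04, or 0.11 against scrambled siRNA), beside 28.6% and 28.1%. SLC25A1, the mitochondrial citrate exporter that feeds ACLY, had 112 CPM with DMSO, 97.2 with PD0332991, 145 with scrambled siRNA and 38.2 with CDK4/6 KD. It was 0.263-fold (0.235 to 0.292) with CDK4/6 KD, lower than in each other library. CS, citrate synthase, had 139, 102, 83.6 and 31.1 CPM and was 0.372-fold (0.328 to 0.421) with CDK4/6 KD. ACLY, the next enzyme on the same carbon path, was thus at its highest in the library where SLC25A1 and CS were at their lowest. Of the 8 genes of mitochondrial fatty acid synthesis, a separate pathway that serves lipoylation, 5 were lower and 1 higher with CDK4/6 KD (median -0.45), but the median against DMSO was 0.12. With PD0332991, 2 of these 8 were higher and 2 lower (median 0.21, or -0.14 against scrambled siRNA).

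Other elongases and desaturases did not move as a block. With CDK4/6 KD 2 of 13 were higher and 3 lower, with a median of -0.04 that changed sign with scaling by total counts (0.06), and with PD0332991 3 of 12 were higher and 3 lower (median -0.15, or -0.46 against scrambled siRNA). ELOVL7, an elongase of saturated and polyunsaturated acyl chains, had 7.99 CPM (73 reads) with DMSO, 11.8 (107 reads) with PD0332991, 2.99 (32 reads) with scrambled siRNA and 18.8 (213 reads) with CDK4/6 KD. Its fold with CDK4/6 KD was 6.21 (4.33 to 9.43), to which the low level in the scrambled siRNA library contributed (0.378-fold, 0.239 to 0.575, against DMSO), and against DMSO it was 2.35 (1.80 to 3.12). ELOVL1, which makes very long saturated chains, had 27.4, 25.6, 39.9 and 14.5 CPM and was 0.364-fold (0.301 to 0.436) with CDK4/6 KD. FADS3, the third gene of the FADS cluster, had 17.0, 16.1, 19.8 and 16.3 CPM, at 0.952-fold (0.754 to 1.20) with PD0332991, an interval that excludes the folds of FADS1 and FADS2. ELOVL3 was at least 2-fold lower with CDK4/6 KD on 13 and 6 reads, with an interval that spanned 1 (0.136 to 1.23).

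The genes that activate fatty acids and place them in lipids were mixed. Of 14 acyl-CoA genes, 4 were higher and 5 lower in each treated library against its own control, with medians of -0.04 for CDK4/6 KD, which turned to 0.07 with total counts, and -0.01 for PD0332991, which was -0.24 against scrambled siRNA. ACSL4 and ACSL5 activate long-chain fatty acids. In the order DMSO, PD0332991, scrambled siRNA and CDK4/6 KD, ACSL4 had 263, 148, 207 and 98.1 CPM and ACSL5 had 75.7, 95.5, 118 and 51.6 CPM. They were 0.475-fold (0.441 to 0.510) and 0.436-fold (0.394 to 0.481) with CDK4/6 KD, and ACSL4 was also lower with PD0332991 (0.563-fold, 0.526 to 0.602) while ACSL5 was higher (1.26-fold, 1.14 to 1.40), a direction that turned against scrambled siRNA (0.807-fold, 0.739 to 0.880). The acyl-CoA thioesterases ACOT1 (25.0, 26.7, 11.1 and 39.0 CPM in the same order) and ACOT2 (85.7, 108, 61.6 and 144 CPM) were 3.50-fold (2.86 to 4.34) and 2.33-fold (2.13 to 2.56) with CDK4/6 KD. Both were low in the scrambled siRNA library, ACOT1 at 0.447-fold (0.354 to 0.559) of DMSO, and against DMSO the CDK4/6 KD values were 1.56-fold (1.33 to 1.84) and 1.67-fold (1.54 to 1.83), but their sequences are near-identical, so the split of reads between them is uncertain. FABP1, the liver fatty acid binding protein, had 418 CPM with DMSO, 508 with PD0332991, 1456 with scrambled siRNA and 1426 with CDK4/6 KD, a 3.48-fold (3.36 to 3.61) difference between the controls. Of 17 glycerolipid genes, 8 were higher and 5 lower with CDK4/6 KD (median 0.16), and 10 were higher and 1 lower with PD0332991 (median 0.42, or 0.18 with 8 higher and 5 lower against scrambled siRNA). Over all genes 30.5% were higher and 32.5% lower with PD0332991 against scrambled siRNA. CIDEC, a lipid droplet protein, had 7.77 CPM with DMSO, 11.6 with PD0332991, 58.1 with scrambled siRNA and 18.6 with CDK4/6 KD, and PLIN2, a droplet coat protein, had 499.9, 319, 1058 and 567 CPM. Both were highest with scrambled siRNA, at 7.44-fold (5.84 to 9.70) and 2.12-fold (2.04 to 2.19) over DMSO. CIDEB, which acts in the lipidation of very low density lipoprotein, was 2.40-fold (2.27 to 2.55) with CDK4/6 KD. AGPAT2, which makes phosphatidic acid, was 2.87-fold (2.13 to 3.96) in the same comparison, and AGPAT9, a glycerol-3-phosphate acyltransferase, was 0.261-fold (0.190 to 0.349), or 0.570-fold (0.398 to 0.807) against DMSO.

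Cholesterol synthesis and fatty acid oxidation are the pathways closest to these genes. Of 23 cholesterol genes, 20 were higher and 2 lower with CDK4/6 KD (median log2 fold change 0.36), 3 were higher and 19 lower with PD0332991 (median -0.44), and 21 were higher and 2 lower between the controls (median 0.79). The shares over all genes were 30.0% and 31.9%, 28.1% and 28.6%, and 28.3% and 28.0% in turn, and with the other control library the medians were 1.10 for CDK4/6 KD and -1.12 for PD0332991. STARD4, a sterol carrier, had 24.0 CPM with DMSO, 8.35 with PD0332991, 17.8 with scrambled siRNA and 44.0 with CDK4/6 KD, and IDI1, isopentenyl diphosphate isomerase, had 91.9, 33.1, 74.2 and 146 CPM. Both were lowest with PD0332991 and highest with CDK4/6 KD, as FADS2 was, with folds of 0.350 (0.265 to 0.454) and 0.360 (0.314 to 0.411) with PD0332991, and 2.46 (2.08 to 2.93) and 1.97 (1.81 to 2.14) with CDK4/6 KD. HMGCS1, which makes HMG-CoA, was 2.07-fold (1.99 to 2.15) higher with scrambled siRNA than with DMSO, as FASN and ACLY were to a lesser extent. Of the fatty acid oxidation genes, 11 of 19 were higher and 2 lower with CDK4/6 KD (median 0.26) and 13 of 18 were higher and 2 lower with PD0332991 (median 0.43), beside the same shares over all genes. Against scrambled siRNA the PD0332991 median was 0.02, with 9 of 19 higher and 5 lower, beside 30.5% and 32.5% of all genes. CPT1A, the entry step of oxidation, which malonyl-CoA inhibits, had 119, 187, 76.9 and 158 CPM and was 2.05-fold (1.89 to 2.23) with CDK4/6 KD and 1.57-fold (1.46 to 1.70) with PD0332991, or 1.33-fold (1.23 to 1.43) and 2.43-fold (2.24 to 2.65) against the other control.

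**Figure D5:**
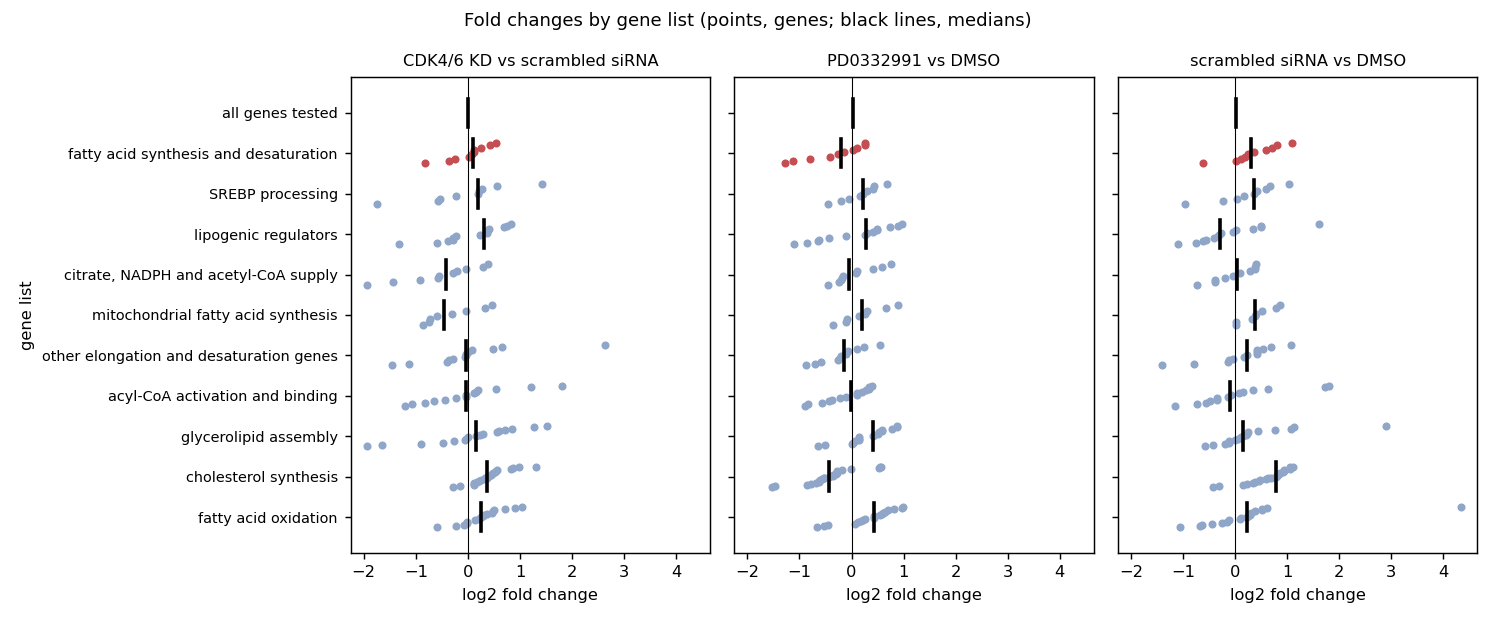
Log2 fold changes (horizontal axes) of the genes of each lipid list (points, with a vertical offset that only separates them) and their medians (black lines) in the comparisons of CDK4/6 KD with scrambled siRNA, PD0332991 with DMSO and the controls with each other. The median of the 10 fatty acid synthesis genes was 0.10, -0.21 and 0.30, and that of cholesterol synthesis was 0.36, -0.44 and 0.79, while the medians of all genes lay between 0.00 and 0.02.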

How the data were processed

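RNA from HepG2 cells was sequenced in 4 QuantSeq libraries, 1 per condition as the sample labels give it. The authors deposited raw counts of reads for each gene symbol, 1 table per library and not normalized. The submitters' processing notes name Bowtie2, edgeR and hg19 without versions, and the counting step and its strand setting are not given in the sources used here. Of 25737 entries in a table, those that repeat a symbol (286 symbols) were added up, leaving 24462 genes.

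TMM factors came from edgeR 4.0.16 (R 4.3.3), with DESeq2 1.42.0 size factors as an alternative. Fold changes used a pseudocount of 0.5 reads and a minimum of 10 reads in one of the libraries compared, with 95% Clopper-Pearson intervals (scipy 1.17.1), and the calculation was tested on simulated data. The quasi-likelihood test of edgeR was not run, since 1 library per condition leaves it no residual degrees of freedom. The precision follows from 8983848 to 11176880 reads per library. Alternatives were DESeq2 factors, total counts, quantile normalization, no filter, a filter of 50 reads, a pseudocount of 5 reads, only the largest entry of each repeated symbol, thresholds of 1.5-fold or with the whole interval past 2-fold, and the control library of the other arm.

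The members and gene lists were chosen with earlier results of these data known. Named genes were all members, CDK4, CDK6, SREBF2, SCAP, INSIG1, INSIG2, MLXIPL and NR1H3, the 5 genes nearest to SREBF1, and from each list up to 2 genes per comparison and direction with the interval farthest from 1 among those at least 2-fold, some of which are not reported here. FADS3 was chosen after its values were seen. Start regions came from RefSeq tables (GRCh38.p14).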

Additional observations from a re-analysis of the deposited data

Results flagged for a closer look

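For 5 of the 10 genes the counting intervals lay on opposite sides of 1 in the comparison of CDK4/6 KD with scrambled siRNA and in that of PD0332991 with DMSO, against 12.9% of 13099 genes. FADS2 was 1.46-fold with CDK4/6 KD and 0.455-fold with PD0332991, FADS1 was 1.08-fold and 0.415-fold, and ACLY was 1.06-fold and 0.834-fold. For these genes the direction was the same against either control library. SREBF1 was 1.33-fold and 0.751-fold, and SCD was 0.779-fold and 1.19-fold, and with the other control library SCD turned in both comparisons, while SREBF1 turned with CDK4/6 KD and was within counting error with PD0332991. With 1 library per condition the difference between the comparisons was not tested. The share over all genes includes genes of few reads, whose wider intervals are called less often, so it is no matched background.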

How the results depend on the processing

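All 30 fold changes of members moved by less than counting error, and those past counting error kept their direction, with DESeq2 size factors, without a filter, with a filter of 50 reads, with a pseudocount of 5 reads and with only the largest entry of each repeated symbol. With total counts 8 of 30 moved by more and with quantile normalization 7 did, and no value past counting error changed direction. The median of the members with CDK4/6 KD was then 0.21 and 0.20, while total counts shifted the median of all genes by 0.10, and the members above 1 with PD0332991 were 2 and 3. The control library mattered most. Against DMSO, CDK4/6 KD had a member median of 0.37, 1 member at least 2-fold higher and 8 above 1, and SREBF1 (0.869), FASN (1.47) and SCD (1.18) reversed. Against scrambled siRNA, PD0332991 had a median of -0.81, 0 members above 1 and 9 below, SCD (0.791) reversed, and SREBF1 (1.15) lay on the other side of 1 within counting error. At 1.5-fold, 1 member was lower with CDK4/6 KD, and 4 were higher and 1 lower between the controls. With the whole interval past 2-fold, 1 member stayed lower with PD0332991 and 0 higher between the controls. The share of upward calls at 2-fold over all genes was 54.7% with CDK4/6 KD (63.6% with total counts) and 51.5% with PD0332991 (37.6% with at least 50 reads). Depth limits ELOVL6 and ACSS2 most. No paired analysis was possible because each condition has 1 library and the labels give no replicate numbers.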
